A study of Mus musculus with 12 samples.

Results

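Platelet-derived growth factors (PDGFs) were followed here as 6 genes, the 4 ligand genes Pdgfa, Pdgfb, Pdgfc and Pdgfd and the 2 receptor genes Pdgfra and Pdgfrb, taken by symbol from the gene counts of 12 mouse scar libraries. All 6 were among the 35976 genes listed, and all 6 were among the 18853 that had enough counts to be tested. The scars came from male mice 8 to 12 weeks old on a C57BL/6J background, either wild type (Tem1WT/WT, WT) or Tem1lacZ/lacZ (lacZ), in which the single exon of Tem1 (Cd248, endosialin) was replaced by a lacZ reporter in every tissue. A distraction device was placed over the wound on day 6, and it was either lengthened by 1 mm a day to 8 mm (traction, TR) or left in place without lengthening (sham, SH). There were 3 mice in each of the groups WTSH, lacZSH, WTTR and lacZTR, with 1 bulk mRNA library per mouse. All 12 mice were wounded and carried the device, so no value stands for unwounded skin or for a scar without a device. The study itself placed Pdgfrb among genes from these libraries that it described as raised by traction in WT and inhibited in lacZ. The Pdgfrb change is thus not independent evidence.

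PDGF-A, -B, -C and -D act as dimers on receptor tyrosine kinases. PDGF-A and PDGF-C chiefly bind PDGFRα, PDGF-D chiefly binds PDGFRβ, and PDGF-B binds both. PDGFRα marks fibroblasts of the dermis, PDGFRβ marks fibroblasts and pericytes, and PDGF-B from endothelium, platelets and macrophages recruits the PDGFRβ-bearing cells; PDGF-C and PDGF-D are secreted in a latent form and need cleavage to act. Endosialin, the protein missing in the lacZ mice, is a surface glycoprotein of the same fibroblasts and pericytes.

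With traction, both receptor genes and the ligand gene Pdgfb rose in WT scars. Pdgfrb rose 3.06-fold, Pdgfra 2.73-fold and Pdgfb 1.93-fold, while the ligand genes Pdgfa (1.16-fold), Pdgfc (1.96-fold) and Pdgfd (0.866-fold) did not pass the test. The 3 calls were lost with the 6 WT libraries alone and without WTSH replicate 1 or 2, while the direction stayed. In lacZ scars the receptor genes also stood higher with traction than with sham, by 2.07-fold for Pdgfrb and 1.74-fold for Pdgfra, without passing the test. No member passed the test for a different effect of traction between the genotypes. Among scars under traction, the lacZ libraries held 0.452 times the Pdgfrb and 0.51 times the Pdgfra of the WT libraries, and this difference too did not pass after adjustment; the Pdgfra difference was -0.97 on the log2 scale with all libraries and -0.46 without WTTR replicate 1.

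Depth was similar, with 41536788 to 64644293 counts per library and between 451 and 39332 counts for each of the 6 genes in every library. Levels are given as CPM, the counts of a gene per 1000000 counts of the library, with totals scaled by the trimmed mean of M values. Cd248 checked the genotype labels: it lay between 92.4 and 337 CPM in the 6 WT libraries and between 0 and 0.248 CPM in the 6 lacZ libraries. Replicate 1 of WTTR stood apart, with 6801 CPM over the neutrophil markers against 62.1 to 609 CPM in the other 11 libraries, and the receptor results under traction are given without it as well. In bulk tissue, fewer cells of a type and less RNA per cell cannot be told apart.

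The regions before the gene starts are printed for the member that rose and has an entry in the promoter table, Pdgfra, and for the ligand genes Pdgfc and Pdgfd, which did not pass the test. Each is the 250 bases before the RefSeq start (GRCm38.p6), 5′ to 3′ on the gene's own strand, and lies outside every annotated exon; capitals mark a match to any of 5 motifs searched on both strands. The regions are chr5:75152001-75152250, plus strand, for Pdgfra, chr3:81036166-81036415, plus strand, for Pdgfc and chr9:6168236-6168485, plus strand, for Pdgfd. For Pdgfra and Pdgfd the RefSeq start lies before the gene start in the GENCODE vM21 annotation (75152292 and 6168584). Distances and matches below refer to the RefSeq start only.
Pdgfra: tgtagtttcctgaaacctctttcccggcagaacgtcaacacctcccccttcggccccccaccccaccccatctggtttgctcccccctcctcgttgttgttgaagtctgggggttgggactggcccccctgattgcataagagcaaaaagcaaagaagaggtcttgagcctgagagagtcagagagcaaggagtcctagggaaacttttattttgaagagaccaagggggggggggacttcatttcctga
Pdgfc: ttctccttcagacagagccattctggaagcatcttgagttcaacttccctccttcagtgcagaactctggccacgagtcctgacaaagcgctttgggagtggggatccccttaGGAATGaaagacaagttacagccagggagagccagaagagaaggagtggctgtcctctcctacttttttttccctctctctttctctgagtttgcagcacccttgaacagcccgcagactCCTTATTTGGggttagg
Pdgfd: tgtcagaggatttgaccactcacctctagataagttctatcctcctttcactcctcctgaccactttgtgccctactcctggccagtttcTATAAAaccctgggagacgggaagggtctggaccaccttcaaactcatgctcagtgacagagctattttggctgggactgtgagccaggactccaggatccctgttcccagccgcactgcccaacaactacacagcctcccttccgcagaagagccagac
The motifs were the GC box GGGCGG, the TATA box TATAAA, the AP-1 motif TGANTCA, the TEAD motif GGAATG and the CArG box, which serum response factor binds. Pdgfc held a CArG box 17 to 8 bases before the start and a TEAD motif 137 to 132 bases before it. Of 32841 promoters of this length in the table, 1.47% held a CArG box and 12.6% the TEAD motif. Pdgfd held TATAAA 160 to 155 bases before the start, a motif found in 12.4% of all promoters. In Pdgfra none of the 5 was present, and the shares of all promoters with the other motifs were 32.7% for the GC box and 6.75% for AP-1. The G and C content was 54.4% for Pdgfra, 50.8% for Pdgfc and 53.6% for Pdgfd, beside a median of 52.4% over all promoters. Both Pdgfa entries overlapped annotated exons, so that gene is named only, as are Pdgfb and Pdgfrb, and a match in such a window describes letters and not binding.

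Pdgfrb, the receptor shared by PDGF-B and PDGF-D and a standard marker of pericytes, had the largest change of the 6. It is a gene of chromosome 18, from 61045150 to 61085061 on the plus strand (GRCm38). In the WTSH libraries it measured 60.1, 62.1 and 77.1 CPM, and in the WTTR libraries 255, 151 and 203 CPM. In lacZ scars it measured 54.0, 38.3 and 40.7 CPM with sham and 55.4, 118 and 102 CPM with traction. All WTTR values lay above all WTSH values and above all lacZTR values, and the lacZTR values lay above the lacZSH values, the lowest of them by a narrow margin. The log2 fold change with traction in WT was 1.61 (SE 0.28, adjusted p = 0.0252, edgeR quasi-likelihood test), and without WTTR replicate 1 it was 1.40 (adjusted p = 0.046).

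Pdgfra, on chr5:75152292-75198215, plus strand, encodes the receptor for PDGF-A and PDGF-C that marks dermal fibroblasts and their precursors. It measured 202, 207 and 249 CPM in WTSH and 936, 450 and 408 CPM in WTTR. In lacZ scars it measured 193, 123 and 211 CPM with sham and 259, 387 and 269 CPM with traction. The WTTR libraries were again above every other library, and replicate 1 held more than the other WTTR mice by a wide gap. The log2 fold change in WT was 1.45 (SE 0.33, adjusted p = 0.0329), which fell to 0.95 without that replicate (adjusted p = 0.0621).

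Pdgfb, on chr15:79995874-80014977, minus strand, encodes the ligand that endothelium uses to recruit pericytes. WTSH libraries held 17.8, 17.0 and 21.1 CPM and WTTR libraries 25.7, 35.5 and 46.4 CPM, with no overlap. The lacZ libraries held 21.6, 18.0 and 17.6 CPM with sham and 18.3, 24.0 and 27.8 CPM with traction, and these overlapped. Its log2 fold change with traction was 0.95 in WT (SE 0.22, adjusted p = 0.0348) and 0.29 in lacZ (SE 0.22, adjusted p = 0.718). Without WTTR replicate 3, its highest library, the change in WT was 0.72 and did not pass (adjusted p = 0.0836).

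The other ligand genes did not pass the test. Pdgfa, on chr5:138976014-138997370, minus strand, is the classical ligand of PDGFRα, and it was the steadiest member, between 17.6 and 24.4 CPM over the 12 libraries. Its WTTR libraries, at 24.4, 22.5 and 22.8 CPM, all lay above the WTSH libraries at 19.7, 20.3 and 20.2 CPM, by a log2 fold change of only 0.21 (95% interval -0.08 to 0.50, adjusted p = 0.296). Of its exon length, 26.1% is shared with 6330403L08Rik on the opposite strand, and the strand setting of the counting is not given in the sources used here.

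Pdgfc, on chr3:81036416-81214040, plus strand, had the widest spread of the ligands within a group. It measured 10.7, 39.1 and 67.9 CPM in WTTR, so that these 3 mice held both the lowest and the highest value of all 12. With sham it measured 21.9, 13.6 and 24.7 CPM in WT and 18.6, 12.7 and 24.2 CPM in lacZ, and lacZTR libraries held 20.6, 28.0 and 28.9 CPM. The log2 fold change in WT was 0.97 (95% interval -0.16 to 2.1, adjusted p = 0.22). Averaged over genotypes it was 0.73 (adjusted p = 0.198), and it passed without WTTR replicate 1 (0.96, adjusted p = 0.0347). Without WTTR replicate 3, its highest library, it was 0.42 averaged over genotypes (adjusted p = 0.428) and 0.32 in WT (adjusted p = 0.725).

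Pdgfd, on chr9:6168584-6378850, plus strand, encodes a ligand of PDGFRβ that is secreted in latent form. It measured 32.1, 30.0 and 54.0 CPM in WTSH, 14.8, 35.2 and 50.4 CPM in WTTR, 49.2, 29.5 and 37.8 CPM in lacZSH, and 25.2, 35.0 and 41.9 CPM in lacZTR. All groups overlapped. The log2 fold change with traction was -0.21 in WT (95% interval -1.09 to 0.67) and -0.19 in lacZ (95% interval -1.07 to 0.69), and in WT it turned to 0.13 without WTTR replicate 1 and to 0.12 without WTSH replicate 3.

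**Figure D1:**
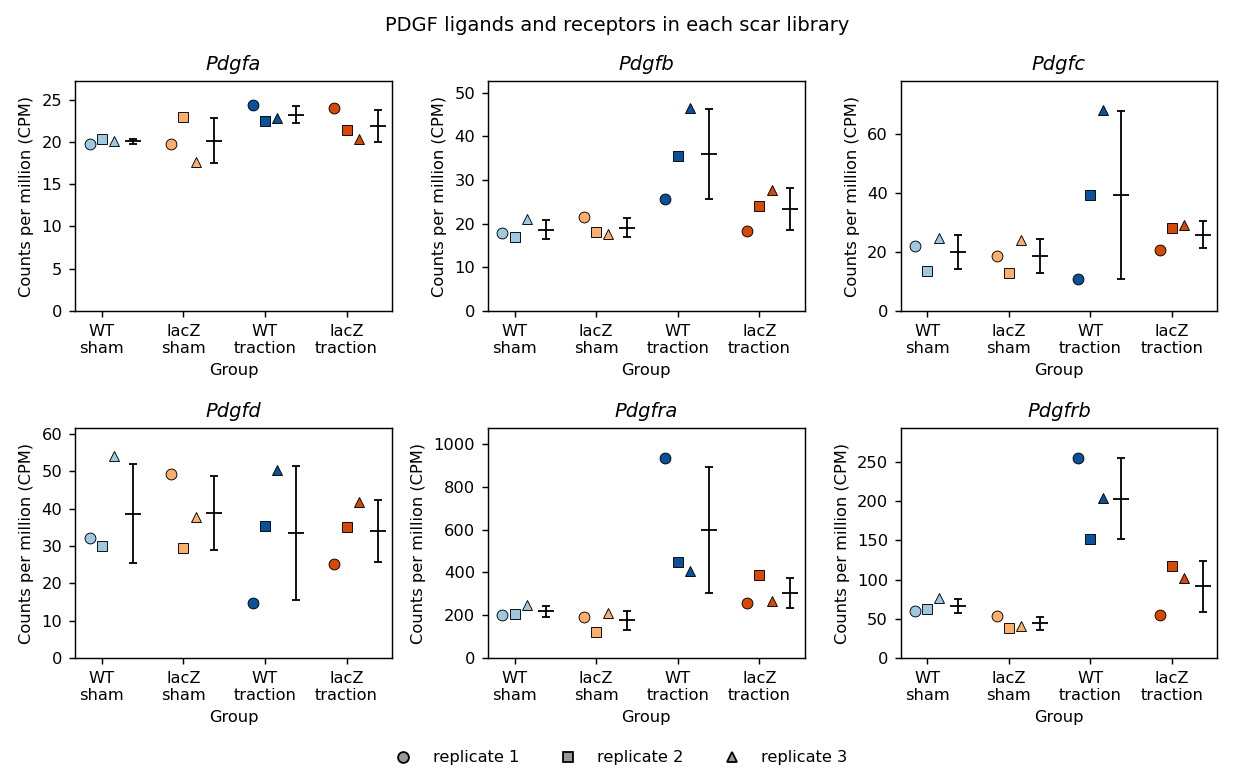
CPM (vertical axis, linear from 0) of the 6 genes in each library, by group; symbols are replicate numbers, which name mice and do not pair them, and the bar to the right of each group is its mean with SD (n = 3). For Pdgfra and Pdgfrb all 3 WTTR libraries sit above the 9 others; Pdgfc in WTTR runs from 10.7 to 67.9.

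In WT scars, 3 of the 6 genes passed an adjusted p of 0.05 with traction, all higher, where 9.15% of all tested genes passed. The 6 genes were chosen with earlier results of these data known. Groups did not overlap for 4 of the 6 (Pdgfa, Pdgfb, Pdgfra and Pdgfrb), beside 35.7% of all genes. The median log2 fold change was 0.96 over the 6 and -0.01 over all genes tested. The fit shares its estimate of spread over all 4 groups; with the 6 WT libraries alone no member passed (adjusted p = 0.0747 for Pdgfrb), and without WTSH replicate 1 or WTSH replicate 2 none did either, with log2 fold changes for Pdgfrb of 1.54 and 1.59. Without WTSH replicate 3 or lacZSH replicate 3 only Pdgfrb passed.

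Traction in lacZ scars gave 0 called members and 0 called genes overall (0% of genes). At an unadjusted p under 0.05, 2 of the 6 members stood higher, Pdgfrb (log2 fold change 1.05, SE 0.28, adjusted p = 0.598) and Pdgfra (0.80, SE 0.32, adjusted p = 0.598), where 8.12% of all genes had such a p. The groups did not overlap for the same receptor genes, against 12.9% of all genes. Pdgfrb ranked 61 of 18853 by p. The Pdgfrb value passed with limma-voom (1.25, adjusted p = 0.045) and without lacZTR replicate 1 (1.36, adjusted p = 0.0495), the library that lay closest to the sham values; DESeq2 called no member.

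Between genotypes under traction, 0 members passed in edgeR, where 0.106% of all genes did. With an unadjusted p under 0.05 there were 3 of 6, all lower in lacZ, beside 26.1% of all genes: Pdgfrb (-1.15, SE 0.28, adjusted p = 0.0921), Pdgfra (-0.97, SE 0.32, adjusted p = 0.114) and Pdgfb (-0.62, SE 0.22, adjusted p = 0.126). Non-overlap, for the receptor genes, was seen in 2 of 6 against 26.6% of all genes. DESeq2, which called 2334 of all genes, called both receptor genes lower (adjusted p = 0.00627 for Pdgfrb and 0.0395 for Pdgfra), limma-voom called none, and without WTTR replicate 2 edgeR called Pdgfrb (adjusted p = 0.0291). Without WTTR replicate 1 the differences were -0.46 for Pdgfra (adjusted p = 0.319) and -0.91 for Pdgfrb (adjusted p = 0.185), and without WTTR replicate 3 that of Pdgfb was -0.38 (adjusted p = 0.352).

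With sham, 0 members passed between genotypes (0.0106% of all genes) and 0 had an unadjusted p under 0.05 (11.7% of all genes); DESeq2 and limma-voom called none. Pdgfrb came nearest, with a log2 difference of -0.58 (95% interval -1.20 to 0.03, adjusted p = 0.439), and was the only member of 6 whose groups did not overlap, against 26.8% of all genes. Pdgfra differed by -0.32 (95% interval -1.03 to 0.39), and the 4 ligands by -0.11 to 0.04.

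Whether traction acted differently in the genotypes was tested by the interaction. No member passed by edgeR, DESeq2 or limma-voom. The study placed Pdgfrb in its profibrotic cluster, drawn from genes it reported with an interaction at adjusted p under 0.05. Why the calls differ was not tested. Over all genes edgeR called 0% and DESeq2 called 69 genes. In edgeR 0 of 6 members had an unadjusted p under 0.05, against 8.91% of all genes. The effect of traction was smaller in lacZ by 0.66 for Pdgfb (log2 difference -0.66, 95% interval -1.34 to 0.03, adjusted p = 0.558), with -0.65 for Pdgfra (-1.65 to 0.35) and -0.56 for Pdgfrb (-1.43 to 0.30). These intervals hold both no difference and a difference about as large as the change in WT. Without WTTR replicate 1 the interaction was -0.12 for Pdgfra and -0.31 for Pdgfrb, without lacZTR replicate 1 it was -0.25 for Pdgfrb, and without WTTR replicate 3 it was -0.40 for Pdgfb. Averaged over genotypes, traction raised 3 of 6 members where 9.73% of all genes passed, namely Pdgfrb (1.33, SE 0.20, adjusted p = 0.0203), Pdgfra (1.12, SE 0.23, adjusted p = 0.0254) and Pdgfb (0.62, SE 0.16, adjusted p = 0.0384). None of them passed without WTSH replicate 1, lacZSH replicate 2 or lacZTR replicate 2, only Pdgfrb passed without WTSH replicate 2 or lacZTR replicate 3, and the Pdgfb call was lost under 8 of the 12 left-out libraries. The 4 comparisons share libraries and are not separate evidence.

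**Figure D2:**
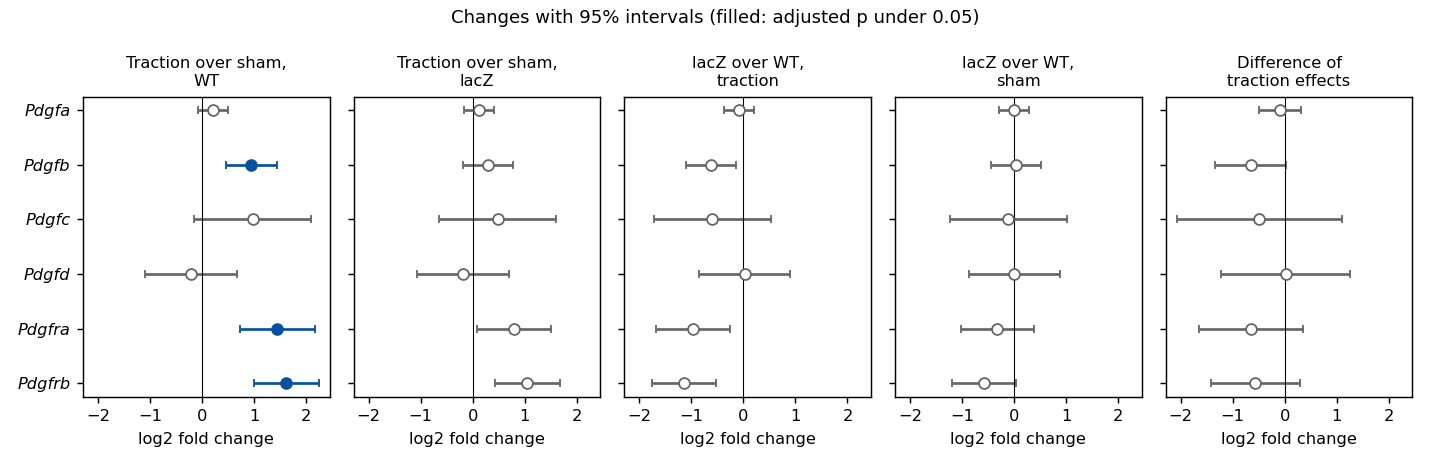
Log2 fold change (horizontal axis) of each gene in the 4 comparisons and in their interaction, with 95% intervals from the edgeR fit; filled points passed an adjusted p of 0.05. Only Pdgfb (0.95), Pdgfra (1.45) and Pdgfrb (1.61) with traction in WT are filled.

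Levels of different genes were compared per kilobase of exon (union of annotated exons, GENCODE vM21). Pdgfra stood first in 12 of 12 libraries, with a mean of 21.9 ± 2.55 CPM per kilobase (SD, n = 3) in WTSH and 59.6 ± 29.3 in WTTR. Pdgfrb, at 12.1 ± 1.69 in WTSH and 37.1 ± 9.51 in WTTR, lay above Pdgfd in 8 of 12 libraries, including all 6 with traction, and their order in sham scars was mixed. Among the ligands, Pdgfd was above Pdgfa in 11 of 12 libraries and above Pdgfc in all 12. Pdgfa, Pdgfb and Pdgfc were close in WTSH (6.43 ± 0.10, 4.47 ± 0.52 and 3.94 ± 1.14), and the ranges of the last 2 overlapped.

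Ligand and receptor mRNA are set side by side as a description, with no test. Summed receptor level was 31.1 to 38.9 CPM per kilobase in WTSH and 72.5 to 140.0 in WTTR, and 19.3 to 29.1 in lacZSH and 36.0 to 60.1 in lacZTR. Summed ligand level overlapped throughout, at 22.8 to 33.5, 20.8 to 47.8, 23.5 to 30.8 and 24.1 to 32.2 in the same order. Receptors over ligands came to 1.16 to 1.40 in WTSH, 1.63 to 6.72 in WTTR, 0.818 to 1.07 in lacZSH and 1.41 to 2.06 in lacZTR; the value of 6.72 is WTTR replicate 1, and the other WTTR mice stood at 1.63 and 2.09. Pdgfb made up 15.1% to 17.9% of the ligand level in WTSH and 23.3% to 29.7% in WTTR, and Pdgfd 40.6% to 51.1% in WTSH and 22.6% to 33.5% in WTTR. Pdgfra made up 63.8% to 64.8% of the receptor pair in WTSH and 52.3% to 66.7% in WTTR, and these ranges overlapped.

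**Figure D3:**
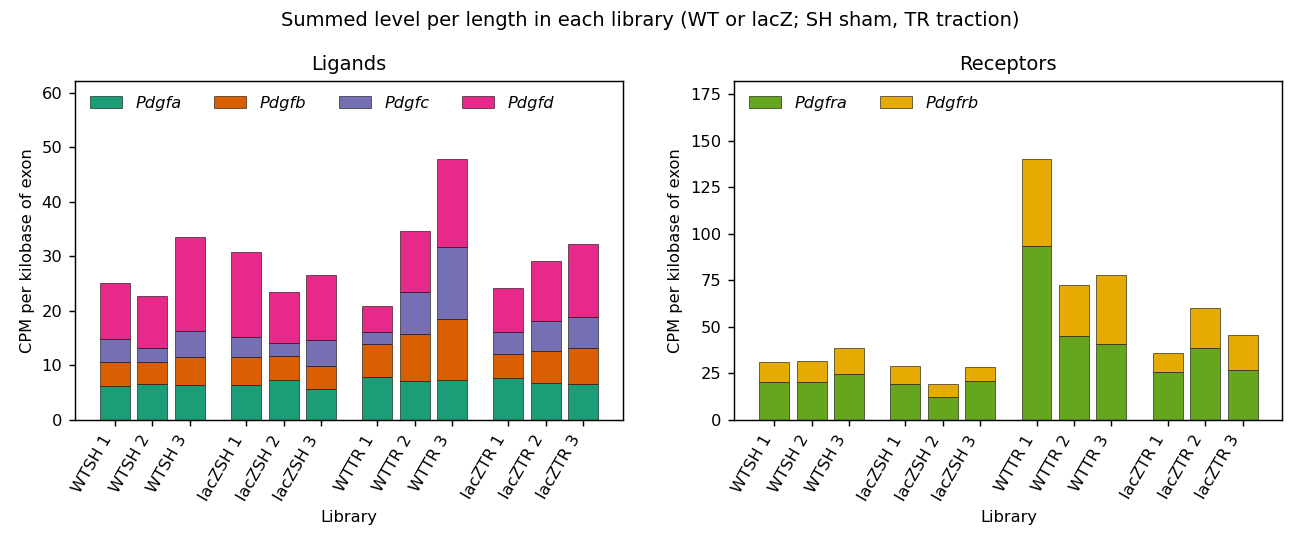
Stacked bars of CPM per kilobase of exon in each library, ligands on the left and receptors on the right. Receptor bars in WTTR reach 72.5 to 140.0 against 31.1 to 38.9 in WTSH, whereas ligand bars of the 2 groups overlap.

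Over the 12 libraries the receptor genes followed each other (Pearson's r = 0.92 of log2 CPM, a description over libraries that share groups), and Pdgfb followed Pdgfrb (r = 0.81) and Pdgfc (r = 0.74). Pdgfd ran against Pdgfa (r = -0.54) and Pdgfra (r = -0.42). The genes most like each member by r over the 12 libraries were Tbc1d10b (0.98), Arhgef2 (0.98) and Nol4l (0.98) for Pdgfrb and Dok3 (0.97), Dhx40 (0.96) and Sema6b (0.96) for Pdgfra. For the ligands they were Itgb5 (0.97), the endothelial adhesion gene Esam (0.97) and Mmp23 (0.96) for Pdgfb, Fut8 (0.96), Tmem55a (0.95) and Mxra7 (0.94) for Pdgfc, Rnase10 (0.93), the glypican gene Gpc6 (0.93) and Hhipl2 (0.92) for Pdgfd, and Myl7 (0.90), Zbtb7b (0.87) and Aamp (0.85) for Pdgfa. Myl7, Hhipl2 and Rnase10 lay near the floor, with mean log2 CPM of -2.51, -1.23 and -0.16. Pdgfrb was the 134th most like gene to Pdgfra, and Pdgfra the 452nd to Pdgfrb.

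Genes around the PDGF receptors were taken as 6 lists with 75 genes, all of them tested. The lists were chosen with earlier results of these data known, so their shares beside all genes only describe. With traction in WT, 13 of 75 passed higher and 1 lower (14 of 75 together, against 9.15% of all genes), and the median log2 fold change was 0.34 against -0.01 over all genes. Of 7 genes that cleave PDGF precursors, 2 rose, the convertase genes Pcsk5 (3.24, SE 0.56, adjusted p = 0.0252; 28.5 ± 5.50 CPM in WTSH and 269.7 ± 144 in WTTR, SD, n = 3) and Furin (1.72, SE 0.38). Plat and Plau, named here for their role after their values were seen, encode proteases that activate PDGF-C and PDGF-D, and did not pass (0.70, SE 0.35, adjusted p = 0.193, and 0.60, SE 0.25, adjusted p = 0.138). Of 6 co-receptors and binding partners, Lrp1, an endocytic receptor that associates with PDGFRβ, rose by 1.45 (SE 0.40, adjusted p = 0.0468).

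Of 19 receptor-proximal signalling genes, 4 rose, the kinase gene Src (1.06), the adaptor genes Grb2 (0.91), Shc1 (0.74) and Crkl (0.46). Src was among the genes the study named from these libraries. Of 12 downstream kinases, Akt1 (0.87) and Map2k1 (0.85) rose, and of 14 brakes on the receptors, the phosphatase gene Ptpn1 (0.97). Among 17 growth factor response genes, the chemokine gene Cxcl1 (4.29, SE 0.62), the AP-1 gene Fosl1 (2.94, SE 0.53) and Ier3 (2.21, SE 0.58) rose and Egr2 fell by 1.19 on the log2 scale (SE 0.28). The number called in the 75 ranged from 0, with the 6 WT libraries alone or without WTSH replicate 1 or 2, to 27 with DESeq2, and without WTTR replicate 1 it was 3.

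In lacZ scars traction changed 0 of the 75 by edgeR, as for 0% of all genes, with 14 of 75 at an unadjusted p under 0.05, 10 of them higher (8.12% of all genes); limma-voom called 4 and DESeq2 0. Nrp2, a neuropilin co-receptor gene, came first (1.05, SE 0.25, adjusted p = 0.598), with Lrp1 at 1.29 (SE 0.40), Grb2 at 0.64 and Pcsk5 at 1.31. Between genotypes under traction, 2 of 75 passed, against 0.106% of all genes. Both were lower in lacZ: Cxcl1 (-4.30, SE 0.62) and Fosl1 (-3.87, SE 0.56), each with adjusted p = 0.0335. At an unadjusted p under 0.05, 35 of the 75 were lower in lacZ and 1 was higher, beside 26.1% of all genes. The median log2 difference over the 75 was -0.37, against 0.01 over all genes. Cxcl1 ran from 15.8 to 66.4 CPM in WTTR and from 1.38 to 2.54 in lacZTR, close to its level with sham (1.09 to 3.82 in WTSH and 1.42 to 1.81 in lacZSH). Both calls were lost with the 6 traction libraries alone and when 1 library was left out among WTTR replicate 1, WTSH replicate 2, lacZSH replicates 2 and 3 and the 3 of lacZTR, while 14 genes were called without WTTR replicate 2 and 21 by DESeq2. Crkl (-0.70, adjusted p = 0.0579) and Src (-1.02, adjusted p = 0.0848) followed.

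With sham, 0 of the 75 differed between genotypes by edgeR, 12 had an unadjusted p under 0.05 (11 lower in lacZ; 11.7% of all genes), and DESeq2 called 1. Nrp2 (-1.06, SE 0.25, adjusted p = 0.409) and Lrp1 (-1.13, SE 0.39, adjusted p = 0.409) had the largest differences among those named by rule. The interaction called 0 of 75, with 13 at an unadjusted p under 0.05 (11 lower; 8.91% of all genes) and 2 by DESeq2. Cxcl1 (-3.98, adjusted p = 0.548) and Fosl1 (-3.48, adjusted p = 0.548) came first there.

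**Figure D4:**
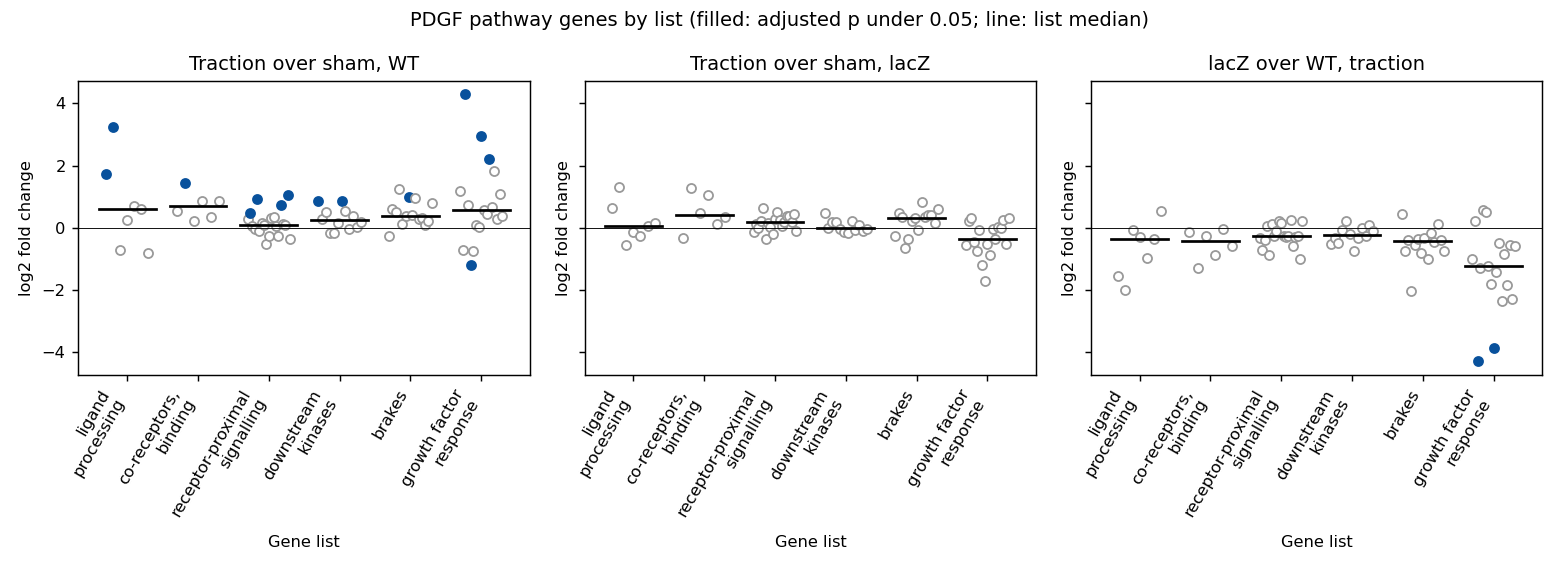
Log2 fold change (vertical axis) of the 75 pathway genes in 6 lists for traction in WT, traction in lacZ and lacZ against WT under traction; points are genes, filled where the adjusted p was under 0.05, and bars are list medians. In WT 14 points are filled, in lacZ none, and between genotypes only Cxcl1 (-4.30) and Fosl1 (-3.87).

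Markers of cell types were measured beside the members, and their part in the changes was not tested; 9.15% of all genes were called with traction in WT. Of 10 blood endothelial markers, 7 rose with traction in WT, with a median of 1.12 over the list, and their summed level was 384 to 553 CPM in WTSH, 919 to 1107 in WTTR, 299 to 510 in lacZSH and 455 to 744 in lacZTR. Of 10 pericyte and smooth muscle markers (Pdgfrb left out), 1 rose, Mcam (1.20, SE 0.23), with sums of 958 to 1203 CPM in WTSH, 893 to 1883 in WTTR, 759 to 905 in lacZSH and 1016 to 1192 in lacZTR. Of 10 fibroblast markers (Pdgfra left out), 1 rose, Fbln1 (0.90, SE 0.20), a share near that of all genes for both lists, with sums of 5671 to 8128 CPM in WTSH, 6426 to 12318 in WTTR, 5353 to 8193 in lacZSH and 5850 to 7694 in lacZTR. The median log2 fold change in WT was 0.71 for fibroblast and 0.61 for pericyte and smooth muscle markers, against -0.01 over all genes. Of each 10, 8 and 7 stood higher, beside 49.4% of all genes. For lacZ against WT under traction the medians were -0.68 (fibroblast), -0.49 (pericyte and smooth muscle) and -0.53 (endothelial), against 0.01 over all genes. In WTTR replicate 1, where both receptor genes were highest, the fibroblast and pericyte sums were the lowest of the 3 WTTR libraries. Of 8 neutrophil markers, 6 were tested and 4 rose in WT, with 62.1 to 97.6 CPM in WTSH and 287 to 6801 in WTTR.

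Of the remaining lists, macrophage markers had 1 of 9 higher with traction in WT (1669 to 2409 CPM in WTSH, 2376 to 2816 in WTTR), and platelet markers 1 of 5 tested of 7, Ppbp (33.3 to 43.5 CPM and 46.5 to 104); 3 of the 7 platelet markers stayed under 1 CPM in every library. None passed of 8 keratinocyte (11606 to 17179 and 14714 to 21662 CPM), 6 adipocyte (561 to 613 and 160 to 570 CPM), 6 Schwann cell (214 to 249 and 195 to 206 CPM) or 7 skeletal muscle markers (1255 to 12809 and 320 to 2070 CPM). The median log2 fold changes in WT were 0.06, -1.29, -0.53 and -2.73 in the same order, against -0.01 over all genes. All 7 skeletal muscle markers were lower at an unadjusted p under 0.05, where 5914 of 18853 genes had such a p. Replicate 1 of lacZTR held 42728 CPM over the keratinocyte markers, against 11606 to 21662 CPM in every other library. Both receptor genes were lowest there among the lacZTR libraries, and a link was not tested. Every listed marker had at least 1 count in some library. Keratinocyte, fibroblast, endothelial and macrophage markers were thus present in all 12 scars.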

How the data were processed

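RNA from part of each scar was made into libraries with a stranded mRNA kit and sequenced as 150-bp paired ends. The authors trimmed reads with fastp 0.20.0, aligned them to GRCm38 with HISAT2 2.1.0 and counted genes with featureCounts 2.0.0, per the labels and the study's methods. They deposited raw whole-number counts per gene, 1 file per mouse. The annotation, strand and multimapping settings of the counting are not given in the sources used here.

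Genes were filtered with filterByExpr (18853 of 35976 kept), scaled by the trimmed mean of M values and fitted over all 12 libraries as 4 groups with edgeR 4.0.16 (robust quasi-likelihood test, Benjamini-Hochberg adjustment over all tested genes, threshold 0.05; R 4.3.3). Log2 CPM used a prior count of 2. The fit was tested on simulated data. Alternatives were DESeq2 1.42.0, limma-voom with sample weights (limma 3.58.1), other scalings and filters, a replicate block and leaving out each library. The 6 members and all gene lists were chosen with earlier results of these data known. Named genes were all members, Cd248, the 3 genes most like each member, and of each pathway list the called genes, up to 4 by size, or otherwise 2 by smallest p; not all of the latter are printed. Lengths are from GENCODE vM21. Promoter sequences are from RefSeq (GRCm38.p6), with entries for 4 of the 6 members. Each library is 1 mouse.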

Additional observations from a re-analysis of the deposited data

How the results depend on the processing

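Both receptor genes and Pdgfb stayed higher with traction in WT and in lacZ, and the receptor genes stayed lower in lacZ than in WT with either sham or traction, in all alternatives run, while the size of the changes and the adjusted p moved. In WT the number of members called went from 3 to 0 with the 6 libraries alone and to 0 at an adjusted p under 0.01, and lay between 0 and 3 when 1 library was left out. Averaged over genotypes it went from 3 to 0 at 0.01 and lay between 0 and 4 over left-out libraries; it was 0 without WTSH replicate 1, lacZSH replicate 2 or lacZTR replicate 2 and 1 without WTSH replicate 2 or lacZTR replicate 3. For traction in lacZ it was 1 with limma-voom and 0 to 1 over left-out libraries, and for lacZ against WT with traction 2 with DESeq2 and 0 to 1. Single calls were also lost with all 12 libraries in the fit. By limma-voom the Pdgfra change in WT was 1.17 (adjusted p = 0.0522). By edgeR with upper quartile scaling the Pdgfb change averaged over genotypes was 0.55 (adjusted p = 0.0565). Over the left-out libraries the Pdgfra change in WT lay between 0.95 and 1.67 and the Pdgfrb change between 1.40 and 1.80. Fits with fewer libraries rest on fewer degrees of freedom, but the calls also moved with the library left out. Over all genes, calls with traction in WT were 0 without WTSH replicate 1 and 2861 without WTTR replicate 2. The cause of these moves was not tested. Counts ranged between 451 and 39332 per member, and a limit from depth was not tested.

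Of the 75 pathway genes, 14 were called with traction in WT; the number was 0 with the 6 libraries alone, 0 at 0.01, 9 with all genes of at least 1 count, 27 with DESeq2, 6 with limma-voom, and 0 to 18 over left-out libraries, among them 0 without WTSH replicate 2 and 3 without WTTR replicate 1 or lacZSH replicate 3. Averaged over genotypes, 15 became 0 at 0.01, 25 with limma-voom and 0 to 22 over left-out libraries. For traction in lacZ, 0 became 4 with limma-voom and 0 to 1 over left-out libraries. For lacZ against WT with traction, 2 became 0 at 0.01, 1 with all genes of at least 1 count, 21 with DESeq2, 0 with the 6 libraries alone and 0 to 14 over left-out libraries. DESeq2 called 1 with sham and 2 in the interaction, against 0. Over all genes, 1725 calls with traction in WT compare with 4047 by DESeq2, 735 by limma-voom, 1011 with all genes of at least 1 count and 0 with the 6 libraries alone. Upper quartile scaling moved the median log2 fold change of all genes to -0.12 there and the higher calls from 1057 of 1725 to 734 of 1673, and to 0.14 for lacZ against WT with traction.

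Direction turned only in values of Pdgfa, Pdgfb, Pdgfc and Pdgfd that passed no test in the main settings; the largest of these were for Pdgfc, at -0.60 between genotypes under traction and -0.49 in the interaction, both turned without WTTR replicate 3. With sham, Pdgfa (lacZ against WT, log2) became -0.025 with all genes of at least 1 count, -0.000282 with DESeq2 size factors, -0.00117 with DESeq2 and -0.081 with limma-voom, and lay between -0.11 and 0.077 over left-out libraries. Pdgfb became -0.016 with limma-voom (-0.089 to 0.15 over left-out libraries), Pdgfc 0.10 with limma-voom (-0.37 to 0.081), and Pdgfd -0.023, -0.00111, -0.00105 and -0.00792 in the order given for Pdgfa (-0.23 to 0.33). Under traction, Pdgfa became 0.050 with upper quartile scaling, Pdgfc lay between -1.01 and 0.069 and Pdgfd between -0.29 and 0.46. With traction against sham, Pdgfd lay between -0.63 and 0.13 in WT and between -0.37 and 0.058 in lacZ. In the interaction, Pdgfa lay between -0.14 and 0.049, Pdgfc between -0.88 and 0.20 and Pdgfd between -0.31 and 0.47.

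Same-numbered libraries came from different mice, so the numbers were not taken to pair mice. Of 18 same-number pairs of libraries, 8 had deviations correlated over 0.1 (-0.32 to 0.25). Whether the numbers mark a shared factor was not tested. With the replicate block, 3 members were called with traction in WT, 0 between genotypes under traction, and the pathway genes called there went from 2 to 1; the block also turned the Pdgfd interaction to -0.012.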
